A study of Mus musculus with 8 samples.

Results

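The histone cluster genes are the members of the mouse Hist1, Hist2, Hist3 and Hist4 gene clusters, and they were taken as all non-control probes whose gene name in the scanner files began with Hist1h, Hist2h, Hist3h or Hist4h. This gave 49 of the 31784 gene names on the array, read by 54 of its 39429 probes. By class, 6 probes carried an H1 name, 15 an H2A name, 12 an H2B name, 8 an H3 name and 13 an H4 name. The array's annotation (build mm9) placed 38 of the probes on chromosome 13, 9 on chromosome 3, 3 on chromosome 11 and 2 on chromosome 6, and left 2 unplaced.

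Expression was measured on 8 one-colour microarrays in the mouse pre-B cells called C10, a line obtained from HAFTL cells. An inducible form of C/EBPα, a transcription factor of the myeloid lineage, turns these cells toward macrophages. The 4 groups were a line labelled Tet2 knockdown after 24 h of induction, the same line at 0 h, a control line, which holds a control hairpin, after 24 h of induction, and that control line at 0 h. All groups carried the inducible C/EBPα and were kept in medium with puromycin, and the 24 h groups received 100 nM estradiol with IL-3 and M-CSF at 10 ng/ml each. Each group had 2 arrays. By the series design these are technical duplicates, and p-values here reflect only how far such arrays lie apart, with no variation among cultures. The RNA was primed for labelling with an oligo-dT primer.

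Core histones (H2A, H2B, H3 and H4) form the protein spool of the nucleosome, and H1 linker histones bind the DNA between nucleosomes. Most genes of the clusters are transcribed in S phase, when new DNA has to be packaged, and their mRNAs end in a conserved stem-loop in place of a poly(A) tail. The protein Slbp binds that stem-loop and directs 3′ end cutting, export and translation of the mRNA. Some cluster genes also make longer, polyadenylated transcripts that run past the stem-loop, which have been described in differentiating and non-dividing cells. How much RNA without a poly(A) tail was labelled here was not tested.

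The stem-loops held by member probes are shown first, because they place those probes before or past the end of the stem-loop mRNA, to which the results return. Of the probes, 7 contain the stem-loop in whole or in part. The windows below are at most 30 bases of the probe, as given in the scanner files, 5′ to 3′ on the transcript strand, and capitals mark the stem-loop.
Hist1h3a: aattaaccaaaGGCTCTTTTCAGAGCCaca
Hist1h3g: cactttaaaGGCTCTTCTTAGAGCCaccca
Hist1h3i: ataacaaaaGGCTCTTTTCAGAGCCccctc
Hist1h4m: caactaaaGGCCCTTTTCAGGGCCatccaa
Hist2h2bb: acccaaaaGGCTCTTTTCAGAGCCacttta
Hist2h2aa1: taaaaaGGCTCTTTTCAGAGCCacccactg
Hist1h2ae: CTTTTCAGAGCCattcacttaattcagtaa
In 5 of these probes the stem-loop lies at the end and only 3 to 6 probe bases follow it. The Hist2h2aa1 probe begins just before the stem-loop and runs 38 bases past it, and the Hist1h2ae probe begins inside it and runs 48 bases past it.

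On build mm9 the Hist1h3a probe is at chr13:23853756-23853815 (minus strand), the Hist1h3g probe at chr13:23627719-23627778 (plus), the Hist1h3i probe at chr13:21874784-21874843 (minus) and the Hist1h4m probe at chr13:21903960-21904019 (plus). The Hist2h2bb probe is at chr3:96074056-96074115 (plus), the Hist2h2aa1 probe at chr3:96049949-96050008 (plus) and the Hist1h2ae probe at chr13:23662489-23662548 (minus).

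Paralogs of a class differ little in their coding sequence, which limits how far a probe can be tied to 1 gene. This is shown by 4 probes near the start of H4 transcripts, in which capitals mark bases that differ from the Hist1h4c probe over the stretch both cover.
Hist1h4c: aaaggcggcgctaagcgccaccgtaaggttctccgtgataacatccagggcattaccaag
Hist1h4d: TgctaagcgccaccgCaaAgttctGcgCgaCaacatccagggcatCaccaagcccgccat
Hist1h4j: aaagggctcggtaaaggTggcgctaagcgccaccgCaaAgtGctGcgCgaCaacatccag
Hist1h4k: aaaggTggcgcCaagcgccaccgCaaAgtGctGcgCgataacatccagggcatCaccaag
The Hist1h4k probe differs from the Hist1h4c probe at 8 of 60 shared bases, the Hist1h4d probe at 7 of 52 and the Hist1h4j probe at 7 of 48. On build mm9 they lie at chr13:23790223-23790282 (minus strand) for Hist1h4c, chr13:23673515-23673574 (plus) for Hist1h4d, chr13:21826989-21827048 (plus) for Hist1h4j and chr13:21842279-21842338 (minus) for Hist1h4k. By the accessions listed for each probe, 14 of the 54 member probes named more than 1 RefSeq gene. Values of those probes belong to a set of paralogs and not to the named gene alone. Probes were not searched against a genome, so whether the other probes read 1 gene only was not tested.

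Short motifs were searched in the promoters of the members, and 4 promoters, all of H1, H2A or H2B genes, are shown over the 120 bases before the annotated start (RefSeq, build GRCm38.p6). Capitals mark the CCAAT box, the TATA box (searched as TATAAA), the octamer (searched as ATTTGCAT) and the H1 box (searched as AAACACA), each searched on both strands. None of these motifs contains another. The genes are the H1 gene whose mean level fell the most in the line labelled Tet2 knockdown, the H1 gene that rose, an H2B gene that fell and the H2A gene that rose in both lines.
Hist1h1b: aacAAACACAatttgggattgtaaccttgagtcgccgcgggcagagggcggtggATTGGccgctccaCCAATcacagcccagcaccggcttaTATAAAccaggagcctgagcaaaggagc
Hist1h1c: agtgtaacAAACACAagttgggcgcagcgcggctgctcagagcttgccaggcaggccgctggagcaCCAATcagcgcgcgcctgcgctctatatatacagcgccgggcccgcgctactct
Hist1h2bm: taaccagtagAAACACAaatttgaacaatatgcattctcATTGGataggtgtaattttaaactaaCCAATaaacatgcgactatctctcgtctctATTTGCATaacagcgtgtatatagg
Hist2h2aa1: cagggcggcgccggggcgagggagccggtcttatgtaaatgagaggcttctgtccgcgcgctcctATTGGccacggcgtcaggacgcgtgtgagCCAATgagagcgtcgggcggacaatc
These stretches lie at chr13:21780626-21780745 (minus strand), chr13:23738687-23738806 (plus), chr13:21721924-21722043 (plus) and chr3:96245377-96245496 (plus) of GRCm38.p6, in the order of the lines.

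A promoter was found for 43 of the 49 member names. Entries were missing for Hist1h2bc, Hist2h2be, Hist1h3a, Hist1h3f, Hist2h4 and Hist3h2bb-ps. In the 250 bases before the start, CCAAT was found in 81.4% of the members and 37.5% of the 27025 genes of the RefSeq table, and TATAAA in 51.2% against 14.3%. The octamer was found in 30.2% of the members and 1.81% of all genes, and AAACACA in 20.9% against 7.2%. The octamer was held by 7 of 14 H2A and 6 of 9 H2B promoters and by none of the 6 H1, 6 H3 or 8 H4 promoters. AAACACA was held by 5 of 6 H1 promoters, and CCAAT by all 29 promoters of H1, H2A and H2B genes, 4 of 6 H3 promoters and 2 of 8 H4 promoters. A match is a description of the letters and not of a bound site.

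Between 40 and 47 of the 54 member probes were well above background on an array, by the scanner software's own mark, and no spot was saturated. Probes detected in this way on the 2 arrays of some group were kept, which left 47 member probes. Those not kept were Hist1h1d, Hist1h2ac, Hist1h2bp, Hist1h2bq, Hist3h2ba, Hist3h2bb-ps and 1 of the 2 Hist4h4 probes. The kept probe with the highest mean level stood for its gene, so 43 members were among the 16151 genes tested: 5 H1, 13 H2A, 8 H2B, 8 H3 and 9 H4. A level is given as the log2 intensity minus the array's 75th percentile on the log2 scale. Duplicate arrays correlated at r = 0.992 to 0.994 across all tested genes, and the kept member probes differed between duplicates by a median of 0.13 to 0.34 on the log2 scale.

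Neither of the 2 Tet2 probes passed the test between the lines. By the probe that stood for the gene, Tet2 was at -0.07 and 0.06 in the line labelled Tet2 knockdown at 24 h, and at -0.03 and 0.01 in the control line at 24 h. It was at -1.51 and -1.30 in the line labelled Tet2 knockdown at 0 h, against -1.23 and -1.36 in the control line at 0 h. The difference between the lines was 0.01 ± 0.10 at 24 h (SE, limma adjusted p = 0.98) and -0.11 ± 0.10 at 0 h (adjusted p = 0.53). By the other probe it was 0.16 ± 0.13 at 24 h (adjusted p = 0.49) and -0.28 ± 0.13 at 0 h (adjusted p = 0.23). The line is therefore called here by its label, and shortened to the Tet2 kd line.

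Most histone cluster genes fell over 24 h of induction in both lines, and a smaller set rose. A gene was called at a limma adjusted p under 0.05, adjusted over all tested genes, together with a 2-fold or larger change. In the Tet2 kd line 28 of the 43 members fell and 7 rose, where 15.4% of all tested genes fell and 16.7% rose. In the control line 30 members fell and 5 rose, where 13.1% of all tested genes fell and 14.2% rose. Hist2h2ab, Hist1h2bb, Hist1h3a and Hist1h3g passed the filter only through 0 h groups, where they were higher. Hist1h2bg passed it only through the control line at 0 h, and its rise in the Tet2 kd line is known only to be at least 1.65-fold. Over the 33 members well above background on all arrays, 23 fell and 5 rose in the Tet2 kd line, beside 1948 and 2178 of 13616 genes. In the control line 24 of the 33 fell and 4 rose, beside 1623 and 1836 genes. The median log2 change of the 43 members was -2.51 in the Tet2 kd line and -3.02 in the control line, beside medians of 0.14 and -0.00012 over all tested genes. The size of the member median depended on the processing: it was -1.39 and -1.97 with the normexp background, -1.77 and -1.95 in the authors' deposited table, and -1.28 and -1.69 with no filter on dim probes. With genes that were not well above background at one time set to their bound, the member medians were -2.42 and -2.90. On the arrays themselves, 31 members lay lower on both 24 h arrays than on both 0 h arrays in each line. Both arrays of 24 h lay above both of 0 h for 9 members in the Tet2 kd line and 8 in the control line. The sign of the change was the same on each of the 2 slides for 40 of the 43 members in either line. These counts over arrays and slides were not made for all tested genes, so they describe the members only. At an unadjusted limma p under 0.05, 38 members changed in the Tet2 kd line and 37 in the control line, where 71.2% and 64.9% of all tested genes did. In bulk RNA, fewer cells with an mRNA and less of it per cell cannot be told apart.

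**Figure D1:**
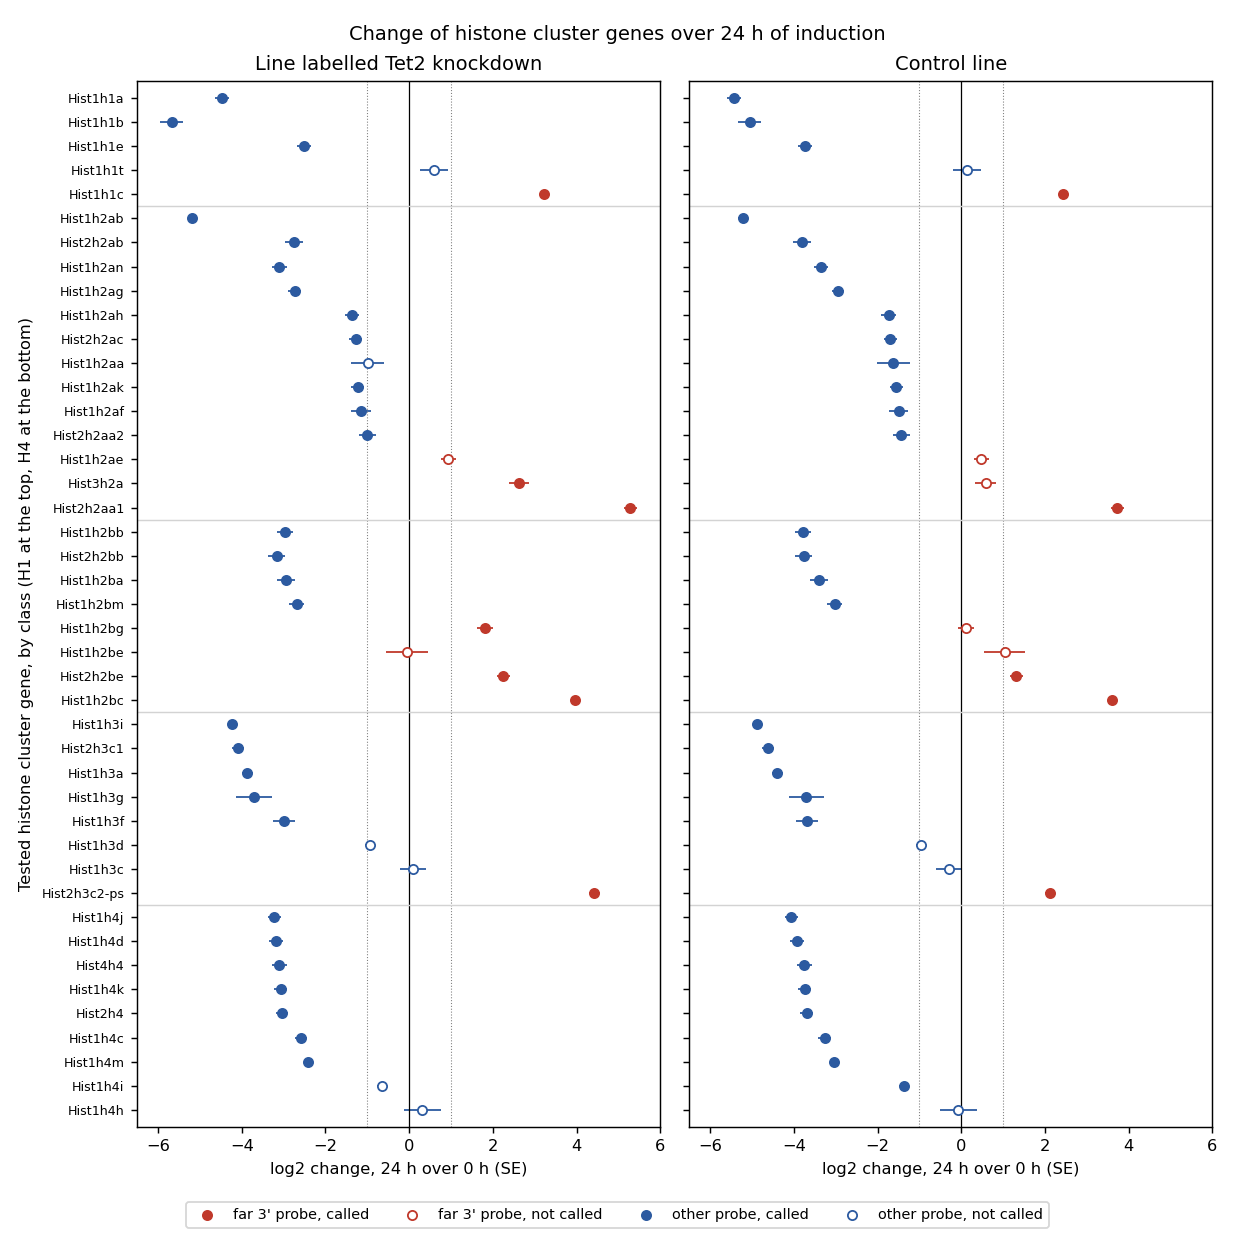
Log2 change, 24 h over 0 h, of the 43 tested histone cluster genes in the line labelled Tet2 knockdown (left) and the control line (right), with the standard error of the fit. Filled points passed the test and the 2-fold minimum, and dotted lines mark 2-fold. Red points are genes read by far 3′ probes (those starting late in the transcript), of which 7 rose in the left panel and 5 in the right. The rise of Hist1h2bg on the left is known only to be at least 1.65-fold. Every called blue point lies below zero.

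Among the H1 linker histones, Hist1h1a, Hist1h1b and Hist1h1e fell and Hist1h1c rose in both lines. Hist1h1a was at -2.11 and -2.17 in the Tet2 kd line at 24 h and at 2.57 and 2.10 at 0 h, and at -2.85 and -2.87 in the control line at 24 h and 2.70 and 2.44 at 0 h. The groups did not overlap, and the log2 change was -4.47 ± 0.17 in the Tet2 kd line (SE, adjusted p = 7.29e-06) and -5.43 ± 0.17 in the control line (adjusted p = 4.66e-06).

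Hist1h1b had the largest H1 fall in the Tet2 kd line. It was at -0.18 and -0.52 there at 24 h and at 5.69 and 4.96 at 0 h, and at 0.20 and -0.09 in the control line at 24 h and 5.03 and 5.19 at 0 h. The 24 h arrays all lay far below the 0 h arrays, and the log2 change was -5.68 ± 0.27 in the Tet2 kd line and -5.06 ± 0.27 in the control line.

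Hist1h1e had the highest mean signal of the H1 probes, the rule by which it is shown. It was at 2.70 and 2.86 in the Tet2 kd line at 24 h and at 5.32 and 5.27 at 0 h, and at 1.81 and 1.77 in the control line at 24 h and 5.78 and 5.28 at 0 h. Its log2 change was -2.51 ± 0.17 in the Tet2 kd line and -3.74 ± 0.17 in the control line, and the 24 h arrays of the control line were the lowest of the 8.

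Hist1h1c, whose probe lies far toward the 3′ end of a long transcript, went the other way. It was at -0.41 and -0.43 in the Tet2 kd line at 24 h and at -3.63 and -3.64 at 0 h, and at 0.08 and 0.08 in the control line at 24 h and -2.32 and -2.40 at 0 h. The rise was 3.21 ± 0.06 in the Tet2 kd line (adjusted p = 9.07e-07) and 2.44 ± 0.06 in the control line (adjusted p = 2.17e-06). Hist1h1t, the testis H1 gene, did not pass the test, at 0.59 ± 0.33 in the Tet2 kd line and 0.14 ± 0.33 in the control line.

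Of the 13 H2A genes, 9 fell and 2 rose in the Tet2 kd line and 10 fell and 1 rose in the control line. Beside the counts of each class here and below, 15.4% of all tested genes fell and 16.7% rose in the Tet2 kd line. In the control line 13.1% of all tested genes fell and 14.2% rose. The median log2 change was -1.23 in the Tet2 kd line and -1.62 in the control line. Hist1h2ab fell the most. It was at 2.01 and 2.18 in the Tet2 kd line at 24 h and at 7.39 and 7.17 at 0 h, and at 2.13 and 2.17 in the control line at 24 h and 7.43 and 7.30 at 0 h. The 24 h and 0 h arrays did not overlap, and the log2 change was -5.18 ± 0.11 in the Tet2 kd line (36.2-fold lower) and -5.22 ± 0.11 in the control line (37.3-fold lower).

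Hist1h2ah had the highest mean signal among H2A probes, and its probe lists 4 RefSeq genes. It was at 7.53 and 7.41 in the Tet2 kd line at 24 h and at 9.05 and 8.63 at 0 h, and at 7.25 and 7.05 in the control line at 24 h and 9.02 and 8.76 at 0 h. Here too all 24 h arrays lay below all 0 h arrays, and the log2 change was -1.37 ± 0.17 in the Tet2 kd line and -1.74 ± 0.17 in the control line. Over the 5 kept H2A probes that list several genes the median change was -1.23 in the Tet2 kd line and -1.56 in the control line. Over the 6 other H2A probes outside the far 3′ set it was -2.74 and -3.38, a split by shared probes that was made after the values were seen. In H4 the split went the other way, with -3.14 and -3.90 for shared probes and -1.57 and -2.47 for the others. In H3 it went as in H2A, with -2.52 and -2.79 against -3.70 and -3.70. Over all classes the medians were -2.69 and -3.26 against -2.96 and -3.70. Among the 5 shared H2A probes, the Hist1h2an probe changed by -3.10 in the Tet2 kd line and -3.35 in the control line. Hist1h2ag, Hist1h2ak and Hist2h2ac fell in both lines, with log2 changes of -1.23 to -2.74 in the Tet2 kd line and -1.56 to -2.94 in the control line, and Hist1h2af fell in both too, with -1.15 ± 0.23 in the Tet2 kd line. Hist1h2aa, a testis H2A gene, was called in the control line, at -1.62 ± 0.40, and not in the Tet2 kd line, at -0.99 ± 0.40. Hist2h2ab was not well above background at 24 h in either line, and it was at least 4.90-fold lower in the Tet2 kd line (adjusted p = 0.000118, means -5.44 at 24 h and -2.70 at 0 h) and at least 4.17-fold lower in the control line (adjusted p = 3.72e-05, means -6.43 and -2.62).

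The H2A gene that rose in both lines was Hist2h2aa1. It was at 2.77 and 2.92 in the Tet2 kd line at 24 h and at -2.68 and -2.21 at 0 h, and at 2.65 and 2.70 in the control line at 24 h and -1.05 and -1.05 at 0 h. The rise was 5.29 ± 0.16 in the Tet2 kd line (39.1-fold, adjusted p = 3.5e-06) and 3.73 ± 0.16 in the control line (13.2-fold, adjusted p = 1.25e-05). These were the largest rises of any member in either line.

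Hist3h2a, from the small cluster on chromosome 11, was at 1.59 and 1.57 in the Tet2 kd line at 24 h and at -0.64 and -1.45 at 0 h, and at 1.04 and 1.02 in the control line at 24 h and 0.40 and 0.48 at 0 h. It rose by 2.63 ± 0.25 in the Tet2 kd line, and its change of 0.59 ± 0.25 in the control line did not pass the test. The lowest 2 of its 8 values were the 0 h arrays of the Tet2 kd line. Hist1h2ae, the other H2A gene with a far 3′ probe, was at 0.94 ± 0.18 in the Tet2 kd line and 0.48 ± 0.18 in the control line, which is under the 2-fold minimum in both.

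Of the 8 H2B genes, 4 fell and 3 rose in the Tet2 kd line and 4 fell and 2 rose in the control line. Among the 3 is Hist1h2bg, whose rise is known only to be at least 1.65-fold. Hist2h2bb, with the highest mean signal among H2B probes, was at 1.05 and 1.13 in the Tet2 kd line at 24 h and at 4.50 and 4.01 at 0 h, and at 0.58 and 0.61 in the control line at 24 h and 4.57 and 4.14 at 0 h. Its 24 h arrays lay below its 0 h arrays throughout, and the log2 change was -3.16 ± 0.20 in the Tet2 kd line and -3.76 ± 0.20 in the control line.

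Hist1h2bb had the largest fitted H2B change in the control line, the rule by which it is shown, but its level there at 24 h was below background and gives only a bound. It was at -5.41 and -5.23 in the Tet2 kd line at 24 h and at -2.16 and -2.54 at 0 h, and at -5.38 and -5.73 in the control line at 24 h and -1.62 and -1.94 at 0 h. Neither 24 h array of the control line was well above background for it, so it is given there as at least 7.45-fold lower (adjusted p = 2.67e-05, fitted means -5.56 at 24 h and -1.78 at 0 h), beside a log2 change of -2.97 ± 0.20 in the Tet2 kd line. For such bounds the dim group's value on each array is the higher of the probe's own signal and the lowest signal well above background. The testis H2B gene Hist1h2ba changed by -2.94 in the Tet2 kd line and -3.39 in the control line, and Hist1h2bm by -2.69 and -3.02.

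Hist1h2bc rose the most among H2B genes. It was at 0.16 and 0.22 in the Tet2 kd line at 24 h and at -3.72 and -3.83 at 0 h, and at 0.64 and 0.75 in the control line at 24 h and -2.88 and -2.95 at 0 h. The rise was 3.96 ± 0.07 in the Tet2 kd line (15.6-fold) and 3.61 ± 0.07 in the control line (12.2-fold). Hist2h2be rose by 2.24 ± 0.16 in the Tet2 kd line and by 1.32 ± 0.16 in the control line. Hist1h2bg was at -4.57 and -5.01 in the Tet2 kd line at 24 h and at -6.69 and -6.51 at 0 h, and at -4.89 and -4.59 in the control line at 24 h and -4.95 and -4.75 at 0 h. Its 2 lowest values were the 0 h arrays of the Tet2 kd line, neither of them well above background. Its fitted change in that line was called, but the bound on it is under 2-fold, at least 1.65-fold higher (adjusted p = 0.00036, means -4.79 at 24 h and -6.60 at 0 h), beside 0.11 ± 0.19 in the control line. Hist1h2be did not pass the test, at -0.05 ± 0.49 in the Tet2 kd line and 1.04 ± 0.49 in the control line.

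Of the 8 H3 genes, 5 fell and 1 rose in each line, with a median log2 change of -3.35 in the Tet2 kd line and -3.69 in the control line. Over the 5 H3 genes well above background on all 8 arrays, which leaves out genes that fell below background, the median was -0.94 and -0.96. Hist1h3i fell the most. It was at -3.89 and -3.75 in the Tet2 kd line at 24 h and at 0.50 and 0.35 at 0 h, and at -4.18 and -4.27 in the control line at 24 h and 0.73 and 0.60 at 0 h. No 24 h array overlapped a 0 h array, and the log2 change was -4.25 ± 0.09 in the Tet2 kd line and -4.88 ± 0.09 in the control line.

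Hist2h3c1 changed by -4.09 in the Tet2 kd line and -4.61 in the control line, and Hist1h3f by -2.99 and -3.69. The Hist2h3c1 probe lists 3 RefSeq genes. Hist1h3c did not pass the test, at 0.10 ± 0.31 and -0.29 ± 0.31. Hist1h3a and Hist1h3g were not well above background on either 24 h array of the control line, and there they were lower by at least 14.5-fold (adjusted p = 3.66e-06, means -5.21 at 24 h and -0.82 at 0 h) and at least 10.1-fold (adjusted p = 0.000648, means -5.04 at 24 h and -1.34 at 0 h). The Hist1h3d probe, with the highest mean signal among H3 probes, lists 4 RefSeq genes. It was at 5.49 and 5.50 in the Tet2 kd line at 24 h and at 6.57 and 6.29 at 0 h, and at 5.51 and 5.40 in the control line at 24 h and 6.51 and 6.32 at 0 h. Its changes of -0.94 ± 0.12 and -0.96 ± 0.12 passed the adjusted p threshold in both lines (0.000866 and 0.000875) and missed the 2-fold minimum.

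The H3 gene that rose was Hist2h3c2-ps, which is named as a pseudogene and was not placed on mm9 by the array's annotation. Its probe lists the RefSeq gene H3c15, which is also among the genes listed for the Hist2h3c1 probe, and that probe fell in both lines. It was at -0.62 and -0.75 in the Tet2 kd line at 24 h and at -4.99 and -5.23 at 0 h, and at -0.30 and -0.40 in the control line at 24 h and -2.35 and -2.59 at 0 h. The rise was 4.43 ± 0.12 in the Tet2 kd line (21.5-fold) and 2.12 ± 0.12 in the control line (4.36-fold). The 0 h arrays of the Tet2 kd line were the lowest of the 8.

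By the probes that stood for the genes, no H4 gene rose. Of 9 tested, 7 fell in the Tet2 kd line and 8 in the control line, and the median log2 change was -3.04 in the Tet2 kd line and -3.70 in the control line. Hist1h4j fell the most in both. It was at -1.33 and -0.99 in the Tet2 kd line at 24 h and at 2.16 and 1.96 at 0 h, and at -1.90 and -1.70 in the control line at 24 h and 2.35 and 2.17 at 0 h. The 24 h arrays lay below the 0 h arrays in both lines, and the log2 change was -3.22 ± 0.15 in the Tet2 kd line and -4.06 ± 0.15 in the control line.

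Hist2h4, with the highest mean signal among H4 probes, was at 4.14 and 4.12 in the Tet2 kd line at 24 h and at 7.37 and 6.98 at 0 h, and at 3.73 and 3.60 in the control line at 24 h and 7.46 and 7.25 at 0 h. The times did not overlap in either line, and the log2 change was -3.04 ± 0.15 in the Tet2 kd line and -3.70 ± 0.15 in the control line. Hist1h4c, Hist1h4d, Hist1h4k, Hist1h4m and Hist4h4 fell in both lines, with log2 changes of -2.42 to -3.18 in the Tet2 kd line and -3.04 to -3.92 in the control line. Hist1h4i did not reach 2-fold in the Tet2 kd line, at -0.65 ± 0.11, and fell in the control line, at -1.37 ± 0.11. Hist1h4h did not pass the test in either line, at 0.31 ± 0.44 and -0.07 ± 0.44.

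**Figure D2:**
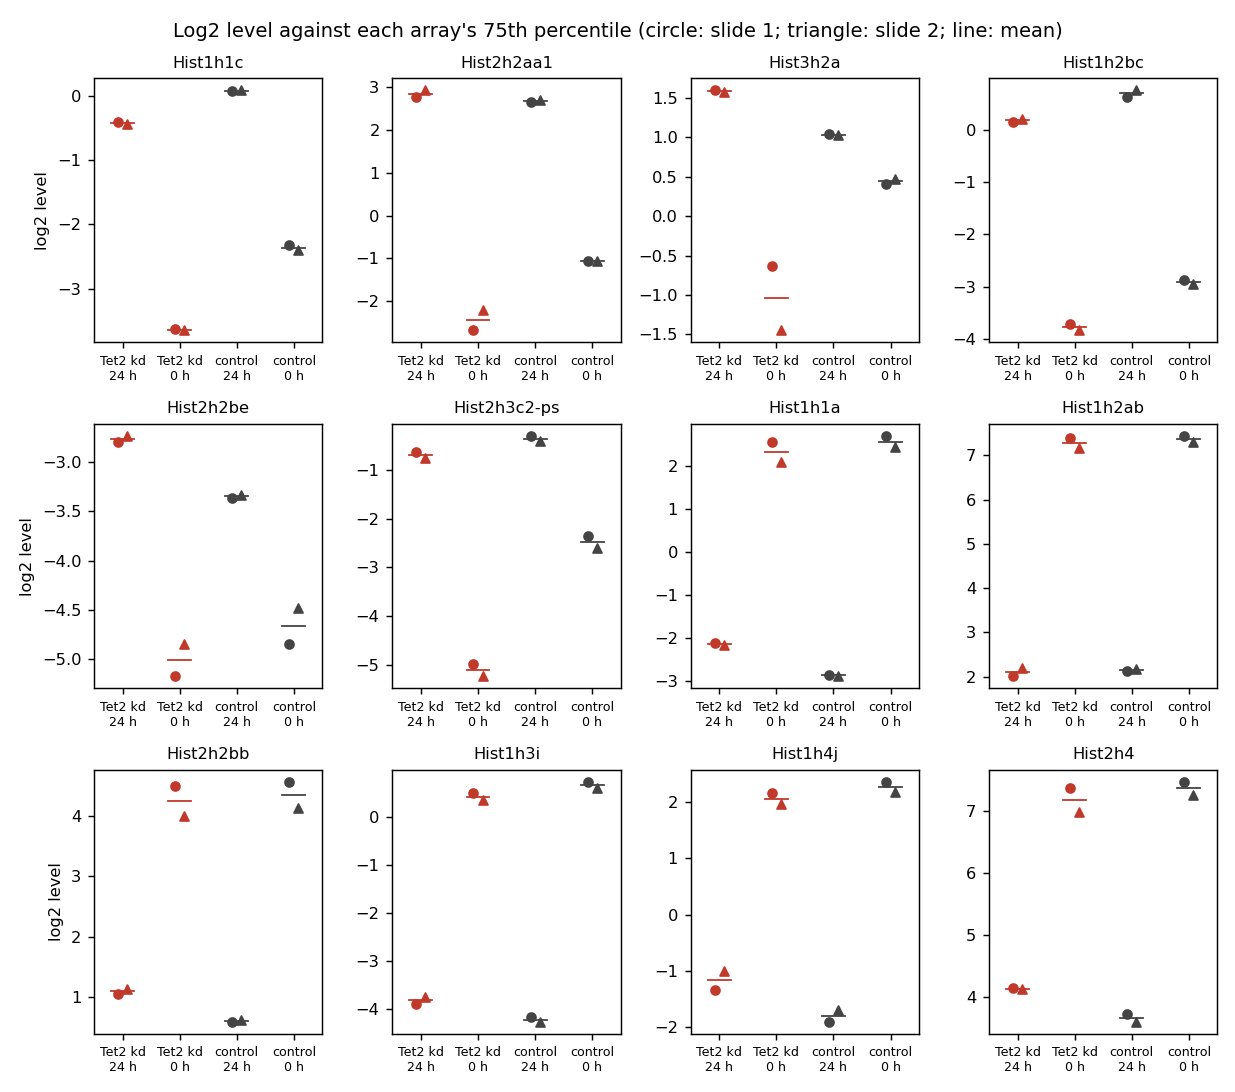
Level of 12 histone cluster genes on each of the 8 arrays, as log2 intensity minus the array's 75th percentile, with the line labelled Tet2 knockdown in red and the control line in grey, and 24 h to the left of 0 h. Circles are slide 1, triangles slide 2 and lines the group mean. The first 6 panels lie higher at 24 h than at 0 h in both lines (for Hist3h2a in the control line the change was not called), and the last 6 lie lower.

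The direction of change followed where the probe lies in the transcript. The scanner files list a start value for each probe, read here as the offset of its first base in the target transcript. A far 3′ probe was taken as one starting at offset 480 or later in a core histone transcript, or 1000 or later in an H1 transcript. This division was made after the values were seen, so it is a description and carries no test. By it, 16 of the 54 probes were far 3′ probes, of which 10 were kept, and 9 of those stood for a tested gene: Hist1h1c, Hist1h2ae, Hist2h2aa1, Hist3h2a, Hist1h2bc, Hist1h2be, Hist1h2bg, Hist2h2be and Hist2h3c2-ps. Of these 9 genes, 7 rose and none fell in the Tet2 kd line, and 5 rose and none fell in the control line, with median log2 changes of 2.63 and 1.32. Of the 34 others, 28 fell in the Tet2 kd line and 30 in the control line and none rose, with medians of -2.84 and -3.54.

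The 47 kept probes include the 43 that stood for these genes, so their division is no second observation, and the ranges overlapped near zero. The 10 far 3′ probes ranged from -0.05 to 5.29 in the Tet2 kd line and from 0.11 to 3.73 in the control line, on the log2 scale of change. The 37 others ranged from -5.68 to 0.59 in the Tet2 kd line and from -5.43 to 0.14 in the control line. Just inside the division were a Hist1h4i probe at offset 483 and Hist2h2aa1 at 488, and just outside it were Hist1h3a at 440 and Hist1h2ab at 435. Between the H1 probes the gap ran from 663 (Hist1h1t) to 1342 (Hist1h1c).

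**Figure D3:**
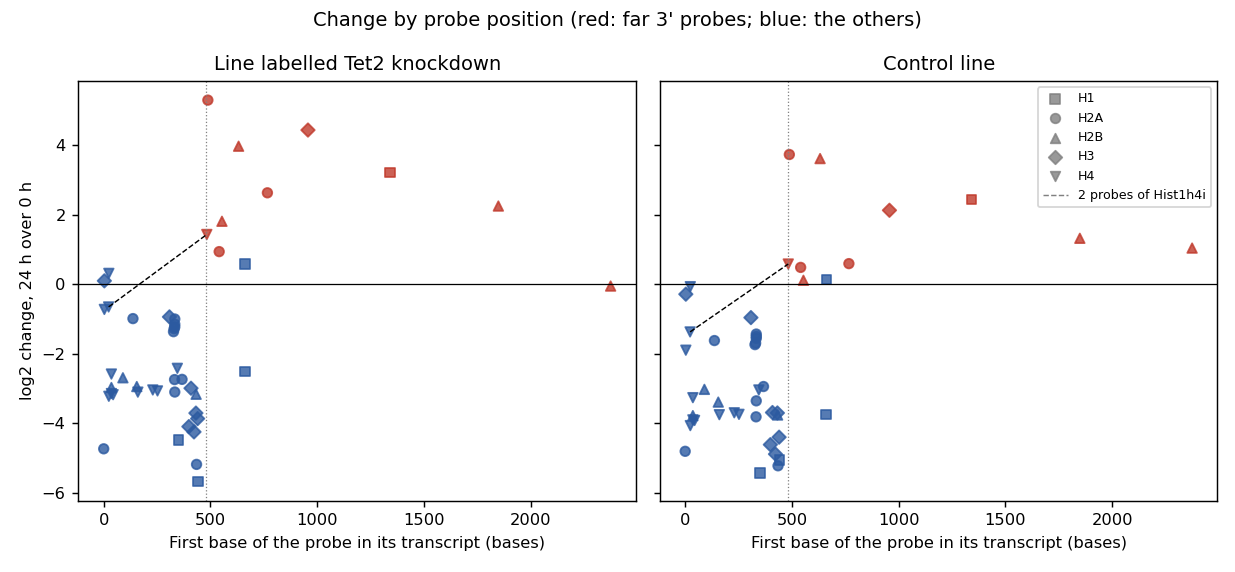
Log2 change, 24 h over 0 h, of the 47 kept member probes against the first base of the probe in its transcript, in the line labelled Tet2 knockdown (left) and the control line (right). Shapes give the class, red marks far 3′ probes, the dotted line is the offset of 480 used for core histones, and the dashed line joins the 2 probes of Hist1h4i, one on each side of zero. The H1 probes past the dotted line at 661 and 663 count as others.

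The probes that hold the stem-loop sit on both sides of this division. All 5 probes that end 3 to 6 bases past the stem-loop (Hist1h3a, Hist1h3g, Hist1h3i, Hist1h4m and Hist2h2bb) fell in both lines, with log2 changes of -2.42 to -4.25 in the Tet2 kd line and -3.04 to -4.88 in the control line. The 2 probes that run 38 and 48 bases past it did not fall, and 1 of them, Hist2h2aa1, rose in both lines.

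Some loci were read by a probe on each side. Hist1h4i had a probe at offset 23, at -0.26 and -0.34 in the Tet2 kd line at 24 h and 0.50 and 0.21 at 0 h, and at -0.54 and -0.69 in the control line at 24 h and 0.79 and 0.72 at 0 h. Its far 3′ probe was at 0.16 and 0.31 in the Tet2 kd line at 24 h and -1.21 and -1.18 at 0 h, and at -0.45 and -0.27 in the control line at 24 h and -1.01 and -0.88 at 0 h. The first was lower at 24 h in both lines and the second higher. The log2 difference of the first was -0.65 in the Tet2 kd line and -1.37 in the control line, and that of the far 3′ probe 1.43 and 0.58, of which -1.37 and 1.43 were called.

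The probe named Hist2h2aa2, at chr3:96049837-96049896 on the plus strand of mm9, lies just upstream of the Hist2h2aa1 probe on the same strand and lists 2 RefSeq genes. It was at 7.71 and 7.59 in the Tet2 kd line at 24 h and at 8.91 and 8.39 at 0 h, and at 7.42 and 7.15 in the control line at 24 h and 8.87 and 8.56 at 0 h. Its 24 h arrays were its lower ones, and on the log2 scale it fell by 1.00 ± 0.21 in the Tet2 kd line and changed by -1.43 ± 0.21 in the control line, while the probe past the stem-loop rose by 5.29 and 3.73.

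Where 2 kept probes of a gene lay on the same side, both pointed down but by different amounts. The probes of Hist1h2ak changed by -4.73 and -1.23 in the Tet2 kd line and -4.80 and -1.56 in the control line. The second of these, which stood for the gene, lists 3 RefSeq genes. The Hist1h4k probes changed by -3.07 and -3.14 in the Tet2 kd line and by -3.74 and -3.90 in the control line. The Hist2h4 probes stood at -3.04 and -0.73 in the Tet2 kd line and at -3.70 and -1.90 in the control line, and the -0.73 was not called.

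The lines differed in a few histone genes before induction. At 0 h, 5 members were lower in the Tet2 kd line than in the control line and none was higher, where 1.39% of all tested genes were lower and 0.328% higher. At an unadjusted p under 0.05, 12 of the 43 members differed, in either direction, where 30.7% of all tested genes did. All 5 called members had far 3′ probes. Hist2h3c2-ps differed by -2.64 ± 0.12 on the log2 scale (adjusted p = 0.00104), with the array values given above, and Hist1h1c differed by -1.28 ± 0.06 (adjusted p = 0.00099). Hist2h2aa1 differed by -1.39 ± 0.16 (adjusted p = 0.00686) and Hist3h2a by -1.48 ± 0.25 (adjusted p = 0.0205). Hist1h2bg was at -6.69 and -6.51 in the Tet2 kd line at 0 h, below background, against -4.95 and -4.75 in the control line, so it was at least 1.58-fold lower (adjusted p = 0.00595, means -6.60 and -4.85). This bound is under the 2-fold minimum, and Hist1h2bg passed the filter only through the control line at 0 h, so 4 of the 5 calls rest on levels measured in both lines. The 0 h call was kept in 18 of 18 alternative settings for Hist2h3c2-ps, 17 of 18 for Hist2h2aa1 and 16 of 18 for Hist1h1c. It was kept in 15 of 17 for Hist1h2bg and in only 10 of 18 for Hist3h2a. Hist1h2bc, at -0.86 ± 0.07, passed the adjusted p threshold (0.00375) and missed the 2-fold minimum. The 34 members with other probes had a median difference of -0.16, and 0 of them were called. Without the first control array at 0 h, 3 members were called and not 5.

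At 24 h no member was called between the lines, where 1.04% of all tested genes were higher and 0.997% lower in the Tet2 kd line by limma. At an unadjusted p under 0.05, 18 members differed, where 31.3% of all tested genes did. Without the 2-fold minimum 5 were higher and 2 lower, where 7.39% of all tested genes were higher and 6.45% lower, so these counts lie near the shares of the whole array. The 2 lower ones were Hist1h1c, at -0.50 ± 0.06 (adjusted p = 0.00726), and Hist1h2bc, at -0.51 ± 0.07 (adjusted p = 0.0138). The 5 higher ones were Hist1h1e, at 0.99 ± 0.17 (adjusted p = 0.0199), Hist1h1a, at 0.72 ± 0.17, Hist1h4j, at 0.64 ± 0.15, Hist1h3i, at 0.40 ± 0.09, and Hist2h2ab. The Hist2h2ab probe was not well above background on any 24 h array, at -5.56 and -5.33 in the Tet2 kd line and -6.16 and -6.70 in the control line. All 9 H4 genes lay above zero in this comparison, with a median of 0.47, and none was called. Without the first Tet2 kd array at 24 h, Hist1h3g was called lower (-1.06). Of the 24 h arrays, its probe was well above background only on the one left out there. That difference therefore compares signals not well above background, at -6.10 in the Tet2 kd line and -5.07 and -5.01 in the control line.

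The difference between the inductions (Tet2 kd minus control) was called for 5 members, all positive, where 2.36% of all tested genes were called positive and 1.46% negative. At an unadjusted p under 0.05, 22 members differed in either direction, where 33.3% of all tested genes did. Hist2h3c2-ps had a difference of 2.31 ± 0.18 (adjusted p = 0.00386), from changes of 4.43 in the Tet2 kd line and 2.12 in the control line. Hist3h2a had 2.04 ± 0.35 (adjusted p = 0.0209), from 2.63 and 0.59. Hist2h2aa1 had 1.56 ± 0.22 (adjusted p = 0.0137), from 5.29 and 3.73. Hist1h2bg had 1.70 ± 0.26 (adjusted p = 0.0167), from 1.81 and 0.11, with the first of these resting on a 0 h level below background that bounds it only at 0.73. Hist1h1e had 1.23 ± 0.24 (adjusted p = 0.0267), from -2.51 and -3.74, and it was the only one of the 5 without a far 3′ probe. Hist1h1c, at 0.78 ± 0.08 (adjusted p = 0.00747), missed the 2-fold minimum. The number of called members was 1 without the first control array at either time, 2 without the second control array at either time or the second Tet2 kd array at 24 h, 3 without the first Tet2 kd array at 24 h, and 4 without either Tet2 kd array at 0 h. Hist2h3c2-ps was called in all 18 alternative settings tried for it, with values of 1.08 to 2.43. Its change in the Tet2 kd line was 2.81 to 4.55 over these settings, and its difference at 0 h -2.76 to -1.39. In the same test 0 of the 25 S phase genes described below were called (11 at an unadjusted p under 0.05), and 2 of 8 macrophage markers were, Tyrobp at 1.24 and Lyz2 at 1.05. Of 11 tested histone variant genes outside the clusters 1 was called, H1foo, at 1.34 (limma adjusted p = 0.0179). What part these have in the histone differences was not tested.

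**Figure D4:**
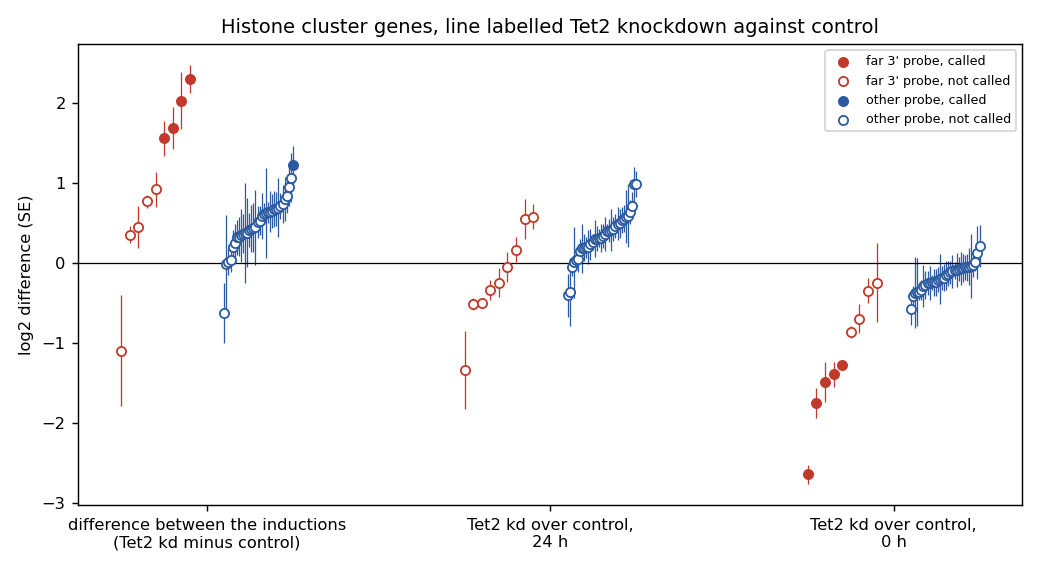
Log2 difference of the 43 tested members, with the standard error of the fit: the difference between the inductions (left), the line labelled Tet2 knockdown over control at 24 h (middle) and at 0 h (right). Within each, the far 3′ probes are red and the others blue, and filled points were called. At 0 h the 5 filled points are all red and lie between -1.28 and -2.64.

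Genes of lists for S phase and for the making and handling of histones were read in the same inductions. Beside them, 15.4% of all tested genes fell and 16.7% rose in the Tet2 kd line, and 13.1% fell and 14.2% rose in the control line. The lists were drawn up with earlier results of these data known. Of 25 genes of DNA replication and S phase, 25 fell in the Tet2 kd line and 24 in the control line, with median log2 changes of -4.11 and -3.76. Their summed level, in units of the array's 75th percentile, was 39.7 to 40.0 in the Tet2 kd line at 24 h and 646 to 661 at 0 h, and 45.5 to 45.7 in the control line at 24 h and 566 to 607 at 0 h. Mcm10, a replication initiation factor, changed by -6.10 in the Tet2 kd line and -5.85 in the control line. Tk1, thymidine kinase, changed by -5.87 and -5.71, and Rrm2, a ribonucleotide reductase subunit, by -5.96 and -5.48. Tyms, at -0.28, was the one that missed the 2-fold minimum in the control line. The part of this in the fall of the histone genes was not tested.

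Of 23 tested genes for histone gene transcription and pre-mRNA processing, 11 fell and 1 rose in the Tet2 kd line and 10 fell and 1 rose in the control line. Slbp, the stem-loop binding protein, was at -0.74 and -0.89 in the Tet2 kd line at 24 h and at 1.40 and 1.41 at 0 h, and at -0.55 and -0.59 in the control line at 24 h and 1.14 and 1.12 at 0 h. All 4 of its 24 h arrays lay below its 0 h arrays, and the log2 change was -2.22 ± 0.07 in the Tet2 kd line and -1.70 ± 0.07 in the control line. Casp8ap2, a component of the histone locus body, changed by -2.22 ± 0.10 and -1.87 ± 0.10. Zfp473, a zinc finger protein that acts in histone 3′ end formation, was below background at 24 h in both lines and was at least 3.83-fold lower in the Tet2 kd line (adjusted p = 4.16e-05) and at least 3.02-fold lower in the control line (adjusted p = 6.73e-05). Its fitted means were -6.08 at 24 h and -3.09 at 0 h in the Tet2 kd line, and -5.82 and -3.08 in the control line. Mif4gd, an Slbp partner in translation, rose by 1.39 ± 0.10 and 1.04 ± 0.10.

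Ccne1 (cyclin E, the partner of the kinase Cdk2 that acts on the histone locus) was the one gene of this list called between the lines. It changed by -3.15 ± 0.07 in the Tet2 kd line and -1.70 ± 0.07 in the control line, a difference of -1.45 ± 0.09 (adjusted p = 0.00251), and at 24 h the lines differed by -1.09 (adjusted p = 0.00152). Npat, which cyclin E and Cdk2 act on, and Ccne2 were not kept by the filter on dim probes.

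Of 27 histone chaperone and deposition genes, 19 fell in the Tet2 kd line and 17 in the control line, and none rose. Oip5, a factor that loads the centromeric histone, changed by -5.87 in the Tet2 kd line and was at least 32.4-fold lower in the control line (adjusted p = 1.14e-05, means -5.01 at 24 h and 0.34 at 0 h). Asf1b, a chaperone of H3 and H4, changed by -4.05 in the Tet2 kd line and -3.82 in the control line.

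Of 11 tested histone variant genes outside the clusters, 4 fell and 1 rose in the Tet2 kd line, and 5 fell and none rose in the control line. Cenpa, the centromeric H3, was at 0.54 and 0.50 in the Tet2 kd line at 24 h and at 3.72 and 3.61 at 0 h, and at 0.50 and 0.42 in the control line at 24 h and 3.72 and 3.54 at 0 h. The times did not overlap, and the log2 change was -3.14 ± 0.08 in the Tet2 kd line and -3.17 ± 0.08 in the control line. H2afx, the variant phosphorylated at DNA breaks, changed by -1.88 ± 0.09 and -2.40 ± 0.09, and H2afz, which encodes H2A.Z, by -1.65 ± 0.10 and -1.67 ± 0.10.

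Both genes for H3.3, the replacement H3, were measured. H3f3a was at 6.94 and 6.94 in the Tet2 kd line at 24 h and at 5.59 and 5.47 at 0 h, and at 6.75 and 6.65 in the control line at 24 h and 5.78 and 5.73 at 0 h. It rose by 1.42 ± 0.07 in the Tet2 kd line, and its change of 0.94 ± 0.07 in the control line missed the 2-fold minimum. H3f3b was at -0.13 ± 0.06 and 0.01 ± 0.06 and did not pass in either line. H1f0, the linker histone of non-dividing cells, was not kept by the filter.

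**Figure D5:**
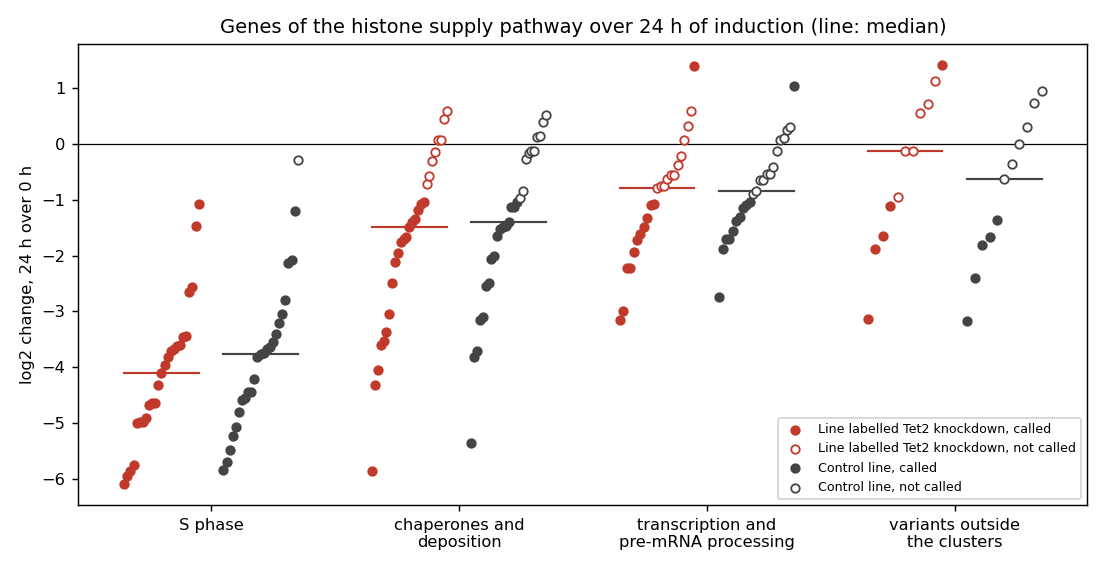
Log2 change, 24 h over 0 h, of the tested genes of 4 lists, with the line labelled Tet2 knockdown in red to the left of the control line in grey. Filled points were called and horizontal lines are medians, at -4.11 and -3.76 for the S phase list.

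Markers of the labelled cell type and of its induced state moved in the same comparisons. All 11 pre-B markers were well above background in every group. Of these, 6 fell in the Tet2 kd line and 7 in the control line, among them Rag2, at -4.93 and -5.01, and Dntt, at -4.79 and -4.47. Of 8 tested macrophage markers, 7 rose in each line, Cd14 by 8.90 in the Tet2 kd line and 9.17 in the control line. Itgam missed the 2-fold minimum, at 0.20 and 0.36, and Emr1 was not well above background in any group. In units of the array's 75th percentile, the summed level of the pre-B markers was 358 to 377 in the Tet2 kd line at 24 h and 454 to 523 at 0 h, and 260 to 287 in the control line at 24 h and 478 to 516 at 0 h. The summed level of the macrophage markers was 970 to 1056 in the Tet2 kd line at 24 h and 6.84 to 7.47 at 0 h, and 982 to 1041 in the control line at 24 h and 8.18 to 8.25 at 0 h. Neither sum overlapped between the times in either line.

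Of the markers of other lineages, Cd3g and Cd8a of T cells and Gata1, Klf1, Hbb-b1 and Itga2b of erythroid cells and megakaryocytes were not well above background in any group. Cd3e, Cd4, Lck, Epor and Pf4 were above it in all groups, and Cd4 rose by 1.18 in the Tet2 kd line and 1.33 in the control line. What part these shifts have in the histone values was not tested.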

How the data were processed

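Total RNA of 8 samples (500 ng each) was labelled with Cy3 and hybridised to 1-colour arrays of design 026655, scanned and extracted with the scanner's Feature Extraction software (version 10.7.3.1, protocol GE1_107_Sep09), per the file headers. The deposited scanner files hold the intensity of each spot, as a background-subtracted processed signal and as raw mean and local background intensities. The authors' deposited value table holds log2 values, and its normalization is not given in the sources used here, where the submitters' processing notes name limma.

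From the processed intensity, log2 values were computed and each array's 75th percentile over probe spots was subtracted. Spots marked as outliers (155 to 219 per array) were left out. One model with 4 group means was fitted to 8 arrays with limma 3.58.1 (R 4.3.3), with 4 residual and 1.51 prior degrees of freedom, and 2-sided p-values were adjusted by Benjamini-Hochberg over 16151 genes. Errors are standard errors, and the number of arrays limits the precision. The 2 arrays of each group lay on 2 slides, and deviations of same-numbered arrays from their group means correlated at 0.30 to 0.41 in all 6 pairs of groups, so the slide pairs the arrays. The fit was also run on simulated data with known changes, whose noise was independent between arrays, so that run does not cover the pairing by slide.

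The members and gene lists were chosen with earlier results of these data known. By the rule for named genes, array values are given for the largest rise and fall of each class in each induction, the brightest kept probe of each class, and the 5 members with the smallest adjusted p in each line comparison and in the difference between the inductions, and for a few pathway genes fixed by name. The 2 probes of Hist1h4i, the Hist2h2aa2 probe, Tyms, Mif4gd and the split by probe position were added after their values were seen.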

Additional observations from a re-analysis of the deposited data

Results flagged for a closer look

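The change over 24 h differed between the lines, by limma's test of the difference itself, for 5 histone cluster genes. The difference (Tet2 kd minus control, log2 scale) was 2.31 for Hist2h3c2-ps, 2.04 for Hist3h2a, 1.70 for Hist1h2bg, 1.56 for Hist2h2aa1 and 1.23 for Hist1h1e. The value of Hist1h2bg rests on a 0 h level of the Tet2 kd line below background, which bounds its change in that line only at 0.73, and it ranged from 0.42 to 1.91 over the settings tried. In Hist2h3c2-ps, Hist3h2a, Hist1h2bg and Hist2h2aa1 the Tet2 kd line was also lower at 0 h, a call kept in 10 of 18 settings for Hist3h2a. No member was called between the lines at 24 h. Of the alternative settings tried for each gene, the call was kept in 18 of 18 for Hist2h3c2-ps (1.08 to 2.43), 11 of 18 for Hist2h2aa1, 10 of 18 for Hist3h2a, 10 of 17 for Hist1h2bg and 9 of 18 for Hist1h1e.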

How the results depend on the processing

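Of 190 recomputed counts of called members, 175 stayed within 1.5 times the values above, and of 1424 recomputed values of called members 1367 kept their call, 57 lost it and 0 changed sign. In the Tet2 kd induction 7 values lost their call and 616 kept it, and in the control induction 6 and 617. Between the lines at 0 h 13 lost it and 76 kept it. For the difference between the inductions 31 lost it and 58 kept it. The sizes were less stable: of 190 recomputed class medians 137 moved by less than the spread between arrays, 51 moved by more and 2 were reversed. With the slide as a replicate block, 28 members fell and 7 rose in the Tet2 kd line and 30 fell and 5 rose in the control line, the difference between the inductions was called for 6 members and not 5, and no member lost its call. Under no alternative did a far 3′ probe fall or another probe rise in either induction. The division by probe position was made after the values were seen and the alternatives refit the same arrays, so this does not test it. At 0 h, 3 members were lower with the normexp background and with the authors' value table. The difference between the inductions was called for 2 members with median scaling, 1 with no filter and 11 with no minimum fold (9.21% of all tested genes), and at 24 h no minimum fold gave 5 higher and 2 lower members (7.39% and 6.45% of all tested genes). Leaving out 1 array gave 1 to 4 members for the difference between the inductions, 3 to 5 lower at 0 h and 0 to 1 lower at 24 h. The H2B class median was reversed without the filter on dim probes, at 0.012 in the Tet2 kd line and 0.14 in the control line, with 12 genes in place of 8. The H3 median was -1.87 in the Tet2 kd line and -2.43 in the control line with the normexp background, and -2.15 and -2.41 in the authors' value table. The H1 median in the control line was -1.80 with no filter. Median scaling put the median of all genes at -0.11 in both inductions, against 0.14 in the Tet2 kd line and -0.00012 in the control line. The cause of these shifts was not tested. Probes near background limit Hist1h2bg, Hist1h2bb, Hist1h3a, Hist1h3g and Hist2h2ab to bounds in at least 1 comparison.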
